A study of Homo sapiens with 8 samples.

Results

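The genes of 9 transcription regulators of muscle identity were followed through NF-Y peak lists of rhabdomyosarcoma cells: MYOD1, MYOG, MYF5, MYF6, MEF2A, MEF2C, MEF2D, SIX4 and EYA2. They are 9 of 20037 protein-coding genes and were taken as a fixed list, chosen with earlier results of these data known, so their peaks are given as a description with no test. The method was CUT&RUN, in which an antibody tethers a nuclease that cuts out the DNA around a bound protein. Uninfected RH4 cells gave 1 NFYB and 1 NFYC library. RH30 cells carrying an inducible cytosine base editor were collected 8 days after rapamycin induced the editor, and gave 1 NFYB library for each of 4 guide RNAs. The guides sgCtrl1 and sgCtrl2 are the controls, while sgCCAAT2a and sgCCAAT2b were aimed at a CCAAT box in the endogenous PAX3 promoter. Libraries with the latter guides are referred to as edited, although the files used do not measure editing. All groups are labelled PAX3-FOXO1+, the fusion oncogene of this tumour, and all RH30 groups share the editor, the drug selection and the inducer. The RH30 libraries are named by their titles, as their source name and cell line fields read RH4.

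The transcription factor NF-Y, built of the subunits NFYA, NFYB and NFYC, binds CCAAT boxes, most often in promoters. MYOD1, MYF5, MYF6 and MYOG are the basic helix-loop-helix factors of skeletal muscle: MYOD1 and MYF5 commit cells to the lineage, MYOG drives their differentiation, and MYF6 acts largely in later muscle. MEF2A, MEF2C and MEF2D are MADS-box factors that act with them on muscle genes. SIX4 is a homeodomain factor and EYA2 a coactivator of SIX4 and its relatives, and both act upstream of the myogenic factors in the embryo. MYOD1 and MYOG protein serve as diagnostic markers of rhabdomyosarcoma.

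Of the members with a CCAAT box in a listed promoter, SIX4 had a peak over it and MYF6, MEF2C and MEF2A did not. The sequences below are the reference promoters (RefSeq, GRCh38.p14, from 250 bases before the start site to 50 bases from it on, printed along the gene's own strand) that show this best. SIX4 is the member whose peaks cover a listed promoter, and MYF6, MEF2C and MEF2A hold the motif in a promoter that no library's peak overlapped. Capitals mark each CCAAT, which reads ATTGG where it lies on the opposite strand.
SIX4, chr14:60724302-60724601, minus strand: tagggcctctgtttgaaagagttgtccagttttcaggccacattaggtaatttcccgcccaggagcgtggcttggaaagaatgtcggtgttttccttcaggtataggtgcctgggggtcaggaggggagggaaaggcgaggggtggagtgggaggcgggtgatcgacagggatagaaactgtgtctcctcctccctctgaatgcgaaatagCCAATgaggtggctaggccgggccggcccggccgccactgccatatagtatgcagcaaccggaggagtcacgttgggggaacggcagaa
MYF6, chr12:80707384-80707683, plus strand: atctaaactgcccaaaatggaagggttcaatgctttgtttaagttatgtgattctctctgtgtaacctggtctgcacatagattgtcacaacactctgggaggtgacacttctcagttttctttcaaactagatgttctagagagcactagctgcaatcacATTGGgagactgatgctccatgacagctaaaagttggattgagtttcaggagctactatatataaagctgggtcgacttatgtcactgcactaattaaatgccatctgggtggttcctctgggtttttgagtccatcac
MEF2C, outermost of 7 listed starts, chr5:88904056-88904355, minus strand: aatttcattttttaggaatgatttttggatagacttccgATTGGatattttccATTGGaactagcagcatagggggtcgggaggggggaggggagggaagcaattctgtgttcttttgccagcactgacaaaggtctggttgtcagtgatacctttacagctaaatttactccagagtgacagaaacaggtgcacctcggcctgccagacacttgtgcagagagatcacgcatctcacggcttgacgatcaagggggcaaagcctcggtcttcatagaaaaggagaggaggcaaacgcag
MEF2A, middle of 3 listed starts, chr15:99565734-99566033, plus strand: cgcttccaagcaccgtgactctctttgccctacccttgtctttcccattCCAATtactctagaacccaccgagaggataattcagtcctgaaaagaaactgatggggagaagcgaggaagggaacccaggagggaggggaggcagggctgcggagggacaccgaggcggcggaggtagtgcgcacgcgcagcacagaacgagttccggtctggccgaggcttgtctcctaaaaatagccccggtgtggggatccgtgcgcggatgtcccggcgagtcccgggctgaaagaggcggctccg

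The SIX4 motif begins 39 bases before the start site, on the gene's own strand. It lay inside both SIX4 peaks, 91 bp from the centre of the sgCtrl1 peak and 55 bp from the centre of the sgCtrl2 peak. Over all promoters with the motif and a peak, the median distance between peak centre and nearest CCAAT was 22 bp in the sgCtrl1 list and 30 bp in the sgCtrl2 list, and 90% lay within 84 and 99 bp. The SIX4 distances were thus above the median in both libraries, beyond the 90% mark in the sgCtrl1 list and within it in the sgCtrl2 list. MYF6 has an ATTGG that begins 89 bases before its start. MEF2C has a pair, beginning 211 and 197 bases before the outermost start, and none at its other 6 listed starts. MEF2A has one CCAAT that begins 201 bases before the middle start, and an ATTGG that begins 175 bases before the innermost start.

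MYOD1 and EYA2 are not in the promoter table, which holds 7 of the 9 members. Of these 7, 4 hold CCAAT on either strand in at least 1 listed promoter. MYOG, MYF5 and MEF2D hold none, and no library's peak overlapped their listed promoters. The MEF2D promoter in the table lies 10088 bp inside the gene from its outer 5′ end, where the MEF2D peaks were found, so it says nothing about the sequence under those peaks. Over all 22199 listed promoters of protein-coding genes, 34.7% hold CCAAT on either strand within the 300 bases. The E-box CANNTG, the site type of MYOD1 and its relatives, is found in 65.1% of these windows and the GC box GGGCGG in 56.3%, both strands counted. SIX4 has 0 E-boxes and 1 GC box in the printed window, MYF6 has 1 and 0, and the outermost MEF2C promoter has 2 and 0.

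Across the genome the motif and the peaks went together. In the sgCtrl1 list a peak overlapped 25.3% (95% exact interval 24.3 to 26.3%) of the 7701 promoters with CCAAT and 1.61% (1.42 to 1.83%) of the 14498 without. In the RH4 NFYB list the shares were 29.9% (28.9 to 30.9%) and 3.58% (3.28 to 3.90%). In the sgCCAAT2a list they were 19.3% (18.4 to 20.2%) and 0.566% (0.450 to 0.702%). Most promoters with the motif thus carried no peak in any single list, as was the case at MYF6, MEF2C and MEF2A. The intervals cover the counting of promoters only.

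**Figure D1:**
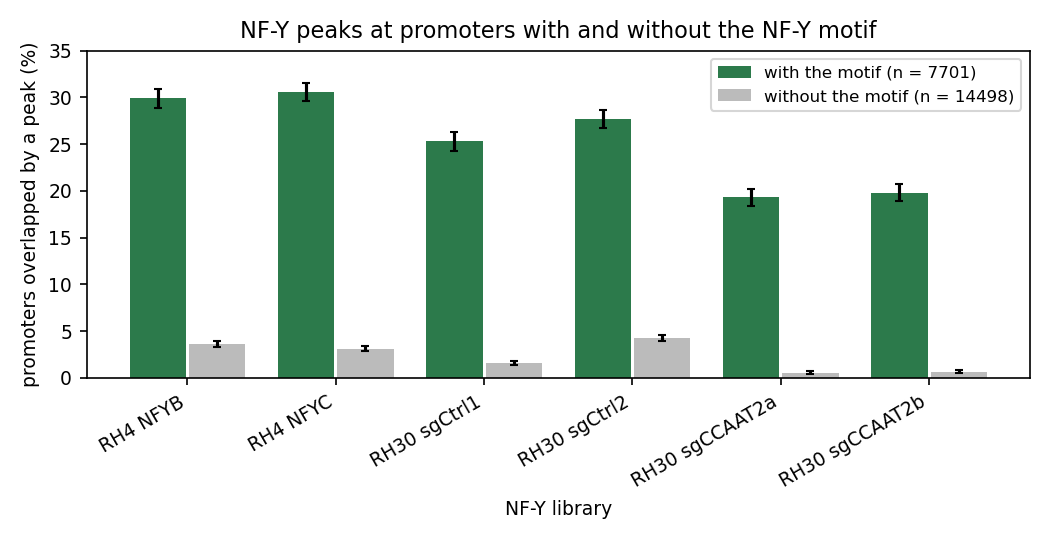
Percent of listed 300-base promoters of protein-coding genes overlapped by a peak, for promoters with (green) and without (grey) CCAAT on either strand, in each NF-Y library; error bars are exact 95% intervals for counting. In every library the green bar is higher, from 19.3% in sgCCAAT2a to 30.6% in RH4 NFYC, and the grey bar is at most 4.24%.

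The lists compared below come from libraries of unequal depth and share of tags in peaks, and differ in length. The RH30 libraries held 10.5 (sgCtrl2), 13.9 (sgCtrl1), 21.2 (sgCCAAT2a) and 28.2 (sgCCAAT2b) M tags (1 M is 1e6 reads as the caller counted them), and the lists 2451 to 6687 peaks. Both edited libraries were deeper than the controls, but had 1.22 and 1.46% of tags in peaks against 2.40 and 3.10%, and shorter lists. In RH4, 3243 peaks were listed for NFYB and 3760 for NFYC, at unknown depth. With 1 library per guide or antibody there is no replicate and no p-value between conditions, and the part of the shorter edited lists in the member peaks was not tested.

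MYOD1, MEF2D and SIX4 carried an NF-Y peak at a gene end, and the other 6 members did not in any of the 6 libraries, as was so for 78.3% of all protein-coding genes. A gene end was counted when a peak overlapped the 1000 bp either side of it. The RH4 NFYB and NFYC lists each had such a peak at 1 of 9 members, MEF2D, where 15.0 and 15.3% of all protein-coding genes had one. The sgCtrl1 and sgCtrl2 lists each had one at 3 of 9, MYOD1, MEF2D and SIX4, where 12.6 and 16.8% of all genes had one. The sgCCAAT2a and sgCCAAT2b lists had one at 0 of 9, where 8.90 and 9.27% of all genes had one; the exact 95% limit of 0 of 9 is 33.6%. With 9 genes, 1 member is 11.1%, so none of these counts can be told from the genome's share by size alone: the exact interval of 3 of 9 runs from 7.49 to 70.1%.

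**Figure D2:**
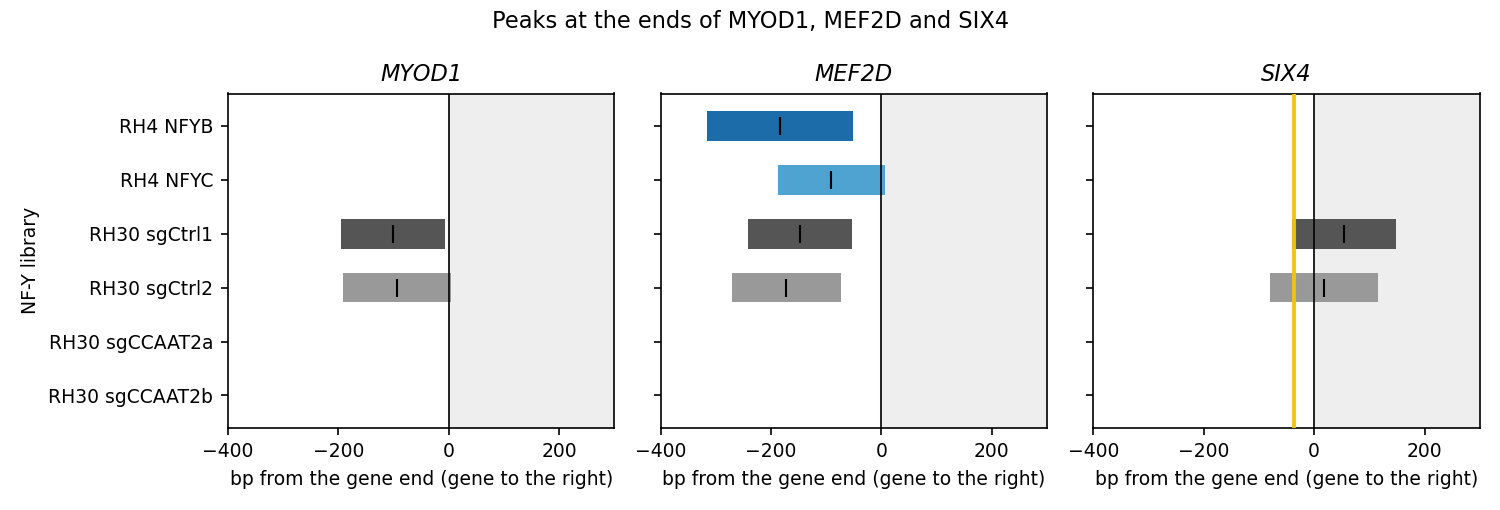
Peaks within 1000 bp of a gene end at MYOD1, MEF2D and SIX4, by library, in bp from the gene end, with the gene to the right (grey), ticks at peak centres and, for SIX4, the CCAAT motif in yellow. The MYOD1 and MEF2D peaks are centred outside the gene and the SIX4 peaks straddle its end; the rows of both edited libraries are empty.

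MYOD1, the master regulator of muscle identity, had a peak just outside its lower-coordinate end in both RH30 controls. The gene spans positions 17719571 to 17722136 of chromosome 11 (hg38) and is known to be read towards higher coordinates, so this is its promoter side. The sgCtrl1 peak covered positions 17719376 to 17719564, with its centre 101 bp outside the gene. The sgCtrl2 peak covered 17719379 to 17719575, with its centre 94 bp outside. They overlapped over 186 bp and their centres were 7 bp apart, the closest match among the pairs of peaks that different control libraries shared at the members. Neither RH4 list had a peak there: the nearest one lay 443 kb from a MYOD1 end for NFYB and 68.9 kb for NFYC. In the edited lists the nearest one lay 35.9 kb away with sgCCAAT2a and 36.0 kb away with sgCCAAT2b.

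The MYOD1 promoter peak was absent from both edited lists without being listed as higher in sgCtrl2 than in either of them. The authors' deposited tables hold sgCtrl2 peaks whose tag count exceeded that of another library at least 2.5-fold, at the submitters' cut-off of 0.001 on a Poisson p; each table sets 1 library against another. The MYOD1 promoter peak was in none of the tables, for sgCCAAT2a, sgCCAAT2b or sgCtrl1. Of all 6687 sgCtrl2 peaks, 61.9, 60.7 and 36.2% were listed over these libraries in the authors' deposited tables, and 26.8% in none. The peak thus passed the caller's criteria in the controls and not in the edited libraries, while its tag count in sgCtrl2 did not exceed theirs by the tables' criteria.

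A more distant MYOD1 site was shared by controls and edited libraries alike. All 4 RH30 lists had a peak about 36 kb outside the lower-coordinate end, and neither RH4 list had one. The centres lay 36026 bp from the end with sgCtrl1, 35962 bp with sgCtrl2, 36020 bp with sgCCAAT2a and 36096 bp with sgCCAAT2b, a spread of 134 bp. Together the peaks covered positions 17683394 to 17683707, in no annotated gene; MYOD1 was the nearest coding gene and the lncRNA LINC02729 ended 11.7 kb away. The authors' deposited tables listed this sgCtrl2 peak over none of the other libraries. For scale, and with the pattern taken from this site after it was seen, of 1224 sgCtrl1 peaks over 10 kb from any coding gene end, 22.1% overlapped a peak of all other RH30 lists, and 8.66% (7.14 to 10.4%) did so and overlapped no RH4 peak.

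The remaining MYOD1 peaks were each found in 1 library. The sgCtrl2 list had one centred 5086 bp outside the lower-coordinate end, at positions 17714387 to 17714583. The authors' deposited tables listed it over both edited libraries but not over sgCtrl1, although the sgCtrl1 list lacked the peak too. The sgCtrl1 list had one centred 28230 bp beyond the other end of the gene, inside KCNC1, a potassium channel gene.

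MEF2D, the member with the most peaks within 50 kb, was the only member with an end peak in RH4 as well as RH30. The gene spans positions 156463727 to 156500775 of chromosome 1, on the minus strand, so its 5′ end is the higher one. The RH4 NFYB peak lay at 156500827 to 156501091, centred 184 bp upstream, and the NFYC peak at 156500769 to 156500963, centred 91 bp upstream. The deposited RH4 consensus list held their intersection, 137 bp wide. In RH30 the peak was centred 148 bp upstream with sgCtrl1 and 172 bp upstream with sgCtrl2. The 4 centres lay within 93 bp of each other, and every pair of these peaks overlapped by at least 115 bp. Neither edited list had a peak there.

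Unlike the MYOD1 peak, the MEF2D promoter peak was listed as reduced. The authors' deposited tables listed it for sgCCAAT2a as well as sgCCAAT2b, but did not list it for sgCtrl1. The sgCCAAT2b list did have a peak further out, centred 2668 bp upstream at positions 156503362 to 156503524. It stood at place 2535 of 2558 in that file and overlapped no peak of another library. The sgCCAAT2a list had no peak closer than 125 kb to a MEF2D end.

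Beyond the other end of MEF2D, RH30 libraries shared a looser site. Peaks were centred 6948 bp outside the lower-coordinate end with sgCtrl1, 6822 bp with sgCtrl2 and 7040 bp with sgCCAAT2b, a spread of 218 bp. The sgCtrl1 peak overlapped the sgCtrl2 peak by 67 bp and the sgCCAAT2b peak by 84 bp, while the sgCtrl2 and sgCCAAT2b peaks did not overlap each other. The RH4 NFYC peak nearby, centred 6410 bp outside, overlapped none of them. The authors' deposited tables listed the sgCtrl2 peak as higher than in both edited libraries. The sgCCAAT2b peak, which met the sgCtrl1 peak only, stood at place 2413 of 2558 in its file. A further sgCtrl2 peak lay within the gene, 7316 bp from its 5′ end, and was also in the authors' deposited tables for both edited libraries and not for sgCtrl1.

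SIX4, the homeodomain factor, had a peak across its 5′ end in both RH30 controls and in no other list. It lies at positions 60709539 to 60724351 of chromosome 14, on the minus strand. The sgCtrl1 peak covered 60724203 to 60724391, centred 54 bp inside the gene, and the sgCtrl2 peak covered 60724235 to 60724431, centred 18 bp inside. They overlapped over 157 bp. No list had another peak within 50 kb of SIX4. The authors' deposited tables listed the SIX4 peak over none of sgCCAAT2a, sgCCAAT2b and sgCtrl1, as for the MYOD1 promoter peak.

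All 3 members with an end peak in both controls had none in either edited list. Over all genes, 2.44% had this pattern, which is 21.6% (20.0 to 23.4%) of the 2259 genes with an end peak in both controls. The pattern was more common among genes that, like MYOD1 and SIX4, had no RH4 peak: 80 of 142 such genes (56.3%, 47.8 to 64.6%) were in neither edited list. Among the 1952 control genes with a peak in both RH4 lists, as at MEF2D, it was 16.4% (14.8 to 18.1%). The rule chose the members with these lists in view, so nothing is read from the count.

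The places of the end peaks in the RH30 files were compared next. Entries of an RH30 file follow the caller's own peak numbers, and the place in the file stands in here for a rank, which the headers do not state. In the sgCtrl2 file the end peaks of MEF2D, MYOD1 and SIX4 stood at places 1777, 2364 and 4009 of 6687. In the sgCtrl1 file they stood at 1870, 2088 and 3467 of 4025. The order of the 3 genes was the same in both. PAX3, the edited locus, stood at place 703 and 545 in these files, and also had its promoter peak in both controls and neither edited list. Among genes with an end peak in both controls and an sgCtrl2 place within 250 of MYOD1's, 48.0% (117 of 244, 41.5 to 54.4%) were in neither edited list. The share was 41.8% (135 of 323, 36.4 to 47.4%) around MEF2D and 4 of 8 genes (15.7 to 84.3%) around SIX4. Within 1000 places it was 40.2% around MYOD1, 29.3% around MEF2D and 51.8% around SIX4. Whether place bears on the members' absence was not tested.

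Genes with the same record as each member were picked by a set rule: the same presence over the 6 libraries, the same entries in the authors' deposited tables, and the nearest place in the sgCtrl2 file. For MEF2D 166 genes outside the lists shared the record, and MAPRE1 (2 places apart), TFB1M (2 places) and PEDS1 (10 places) were nearest. For MYOD1 only 13 did, with MARCHF3 (242 places), FAM111A (251 places) and RASAL3 (476 places) nearest. SIX4 also had 13, with CLTRN (240 places) and then NTHL1 and TSC2, which share 1 peak (393 places).

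MYOG, the differentiation factor, had no peak at its ends and 2 peaks nearby that did not overlap. The sgCtrl1 list had one centred 5272 bp upstream of its 5′ end, with MYOG as the nearest coding gene and the lncRNA MYOPARR 2944 bp away, and the sgCtrl2 list one centred 21798 bp beyond its 3′ end, inside PPFIA4. The authors' deposited tables listed the latter as higher than in both edited libraries and not than in sgCtrl1. MYF5 and MYF6, which lie side by side on chromosome 12, had 0 peaks within 50 kb in any library, as was so for 43.9% of all genes. The nearest peak to MYF5 was 188 kb away with sgCtrl2, 1850 kb away in both RH4 lists and with sgCtrl1, 11400 kb away with sgCCAAT2a and 4320 kb away with sgCCAAT2b. MYF5 and MYF6 were the members farthest from a peak in every list.

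**Figure D3:**
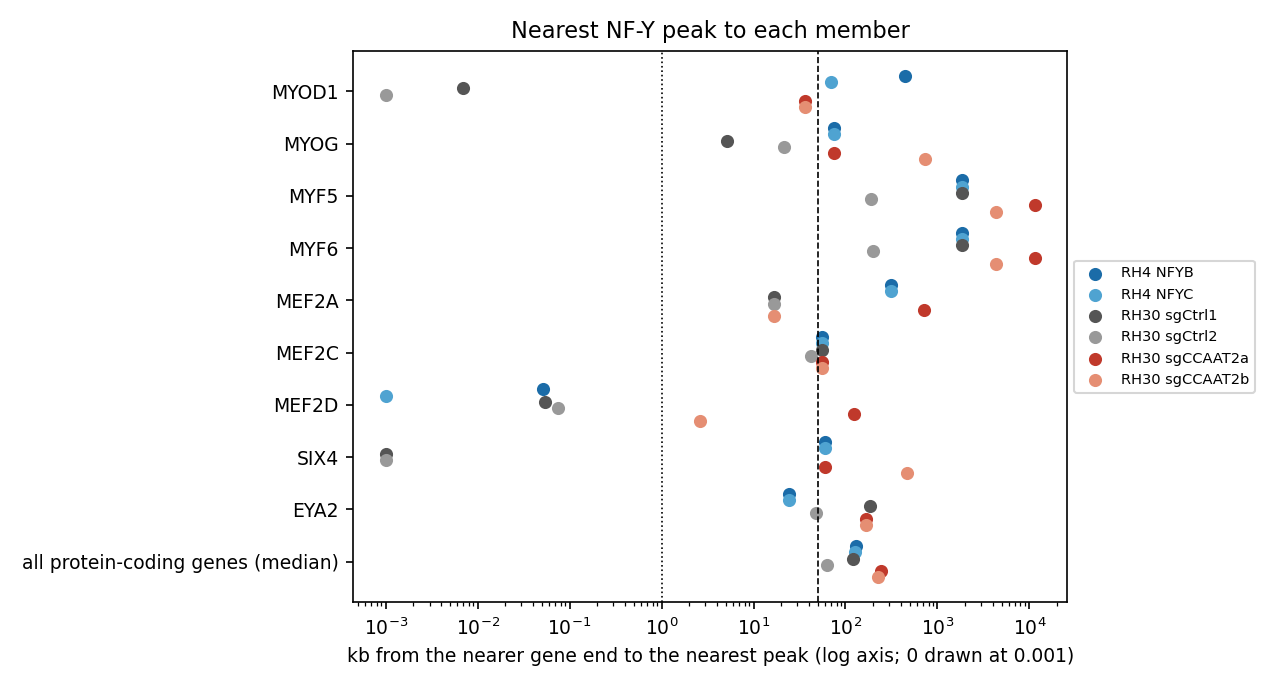
Distance in kb (log axis) from the nearer end of each gene to the nearest peak, by library, with the median over all protein-coding genes in the last row; the dotted line is at 1 kb, the dashed line at 50 kb, and a distance of 0 is drawn at 0.001 kb. MYOD1, MEF2D and SIX4 reach the left side only in control or RH4 libraries, and MYF5 and MYF6 lie at 188 kb or more in every library.

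MEF2A and MEF2C, relatives of MEF2D, carried no peak at their ends. The peaks nearest to MEF2A belonged to another gene: they lay 17.0 kb beyond its 3′ end and 34 to 58 bp from the end of LYSMD4. They were found with sgCtrl1, sgCtrl2 and sgCCAAT2b, with centres within 24 bp, and not with sgCCAAT2a or in RH4. The authors' deposited tables listed this peak as higher in sgCtrl2 than in both edited libraries, although it was called with sgCCAAT2b. MEF2C had 1 peak within 50 kb, with sgCtrl2 only, centred 42730 bp beyond its 3′ end. This peak lay inside the gene MIR9-2HG, and the lncRNA MEF2C-AS2 was 1831 bp away. The authors' deposited tables listed it over all 3 other RH30 libraries.

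EYA2, the coactivator, was the member whose nearby peaks came mainly from RH4. A site centred 24675 bp outside its lower-coordinate end for NFYB and 24648 bp for NFYC was shared by both RH4 lists and by no RH30 list. The NFYC peak, 255 bp wide, lay wholly within the 433 bp NFYB peak, and the consensus list held it. Inside the gene the RH4 NFYC list had a peak 44362 bp from that end and the sgCtrl2 list one 48301 bp from it, which did not overlap. The authors' deposited tables listed the sgCtrl2 peak over all 3 other RH30 libraries.

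**Figure D4:**
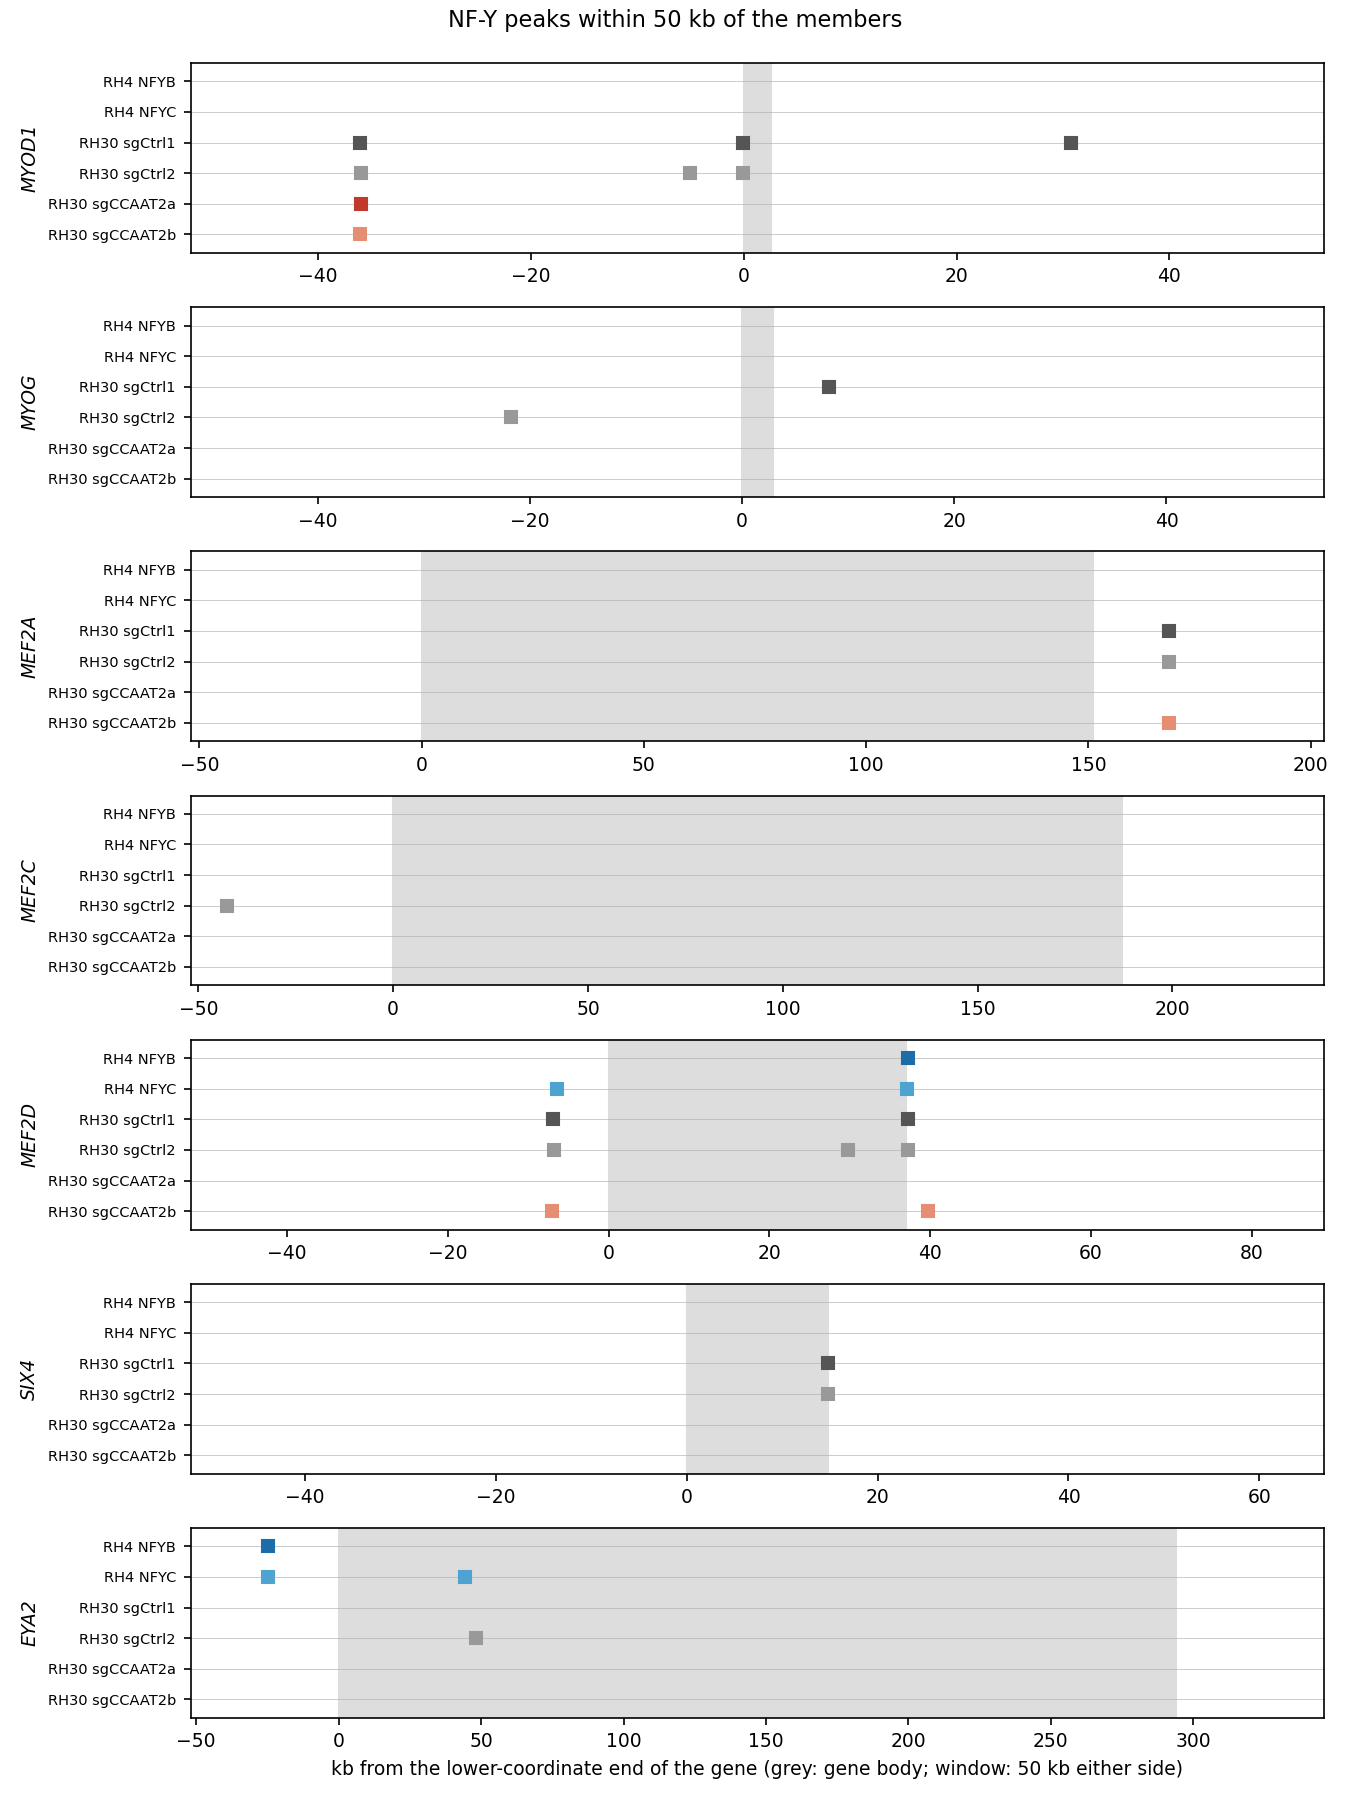
Peak centres (squares) of each library within 50 kb of the 7 members that had any, in kb from the lower-coordinate end of the gene, with the gene body in grey. The site 36 kb from MYOD1 is in all 4 RH30 rows and the EYA2 site 24.7 kb outside the gene is in both RH4 rows. Of the 17 sites, 10 are in 1 row only.

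Over the whole list, 30 peaks lay within 50 kb of a member, 8 of them at a gene end, and they formed 17 sites when overlapping peaks were joined. Of these sites 10 were held by 1 library, 3 by 2, 2 by 3, 2 by 4, and none by 5 or 6. Sites around other genes were not counted this way, so the sharing is not read as a trait of the members. The sites in 4 libraries were the MEF2D promoter, absent from the edited lists, and the distant MYOD1 site, absent from RH4. Within 50 kb, 2 of 9 members had a peak in each RH4 list, where 35.4 and 36.2% of all genes did. It was 5 of 9 with sgCtrl1 and 7 of 9 with sgCtrl2, where 35.9 and 47.2% of all genes did, and 1 of 9 with sgCCAAT2a and 3 of 9 with sgCCAAT2b, where 25.4 and 26.3% did. The window follows gene length, and MEF2A, MEF2C and EYA2 are 151072, 186989 and 294002 bp long. The authors' deposited tables listed 8 of the 11 sgCtrl2 peaks within 50 kb of a member over sgCCAAT2a, the same number over sgCCAAT2b, and 2 over sgCtrl1. Of all 6687 sgCtrl2 peaks, 61.9, 60.7 and 36.2% were listed over these libraries, and nothing is read from the member counts.

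Both distances were set by the rule, and several peaks lay not far beyond 50 kb. The end peak farthest from its gene end was that of MEF2D in RH4 NFYB, centred 184 bp away, and the nearest one left out was the sgCCAAT2b peak 2668 bp from MEF2D. At 50 kb, the farthest peak let in was the sgCtrl2 peak 42.6 kb from MEF2C. The nearest left out lay 55.9 kb from MEF2C, in all 6 lists. Peaks also lay 59.8 to 60.0 kb from SIX4 in every list but sgCCAAT2b. These were centred 44 to 73 bp from an end of another coding gene.

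Genes that act with the members were counted the same way, beside 78.3% of all protein-coding genes with no end peak in any library. Of 14 dimer partners and antagonists of MYOD1, 5 had an end peak in at least 1 library, and 4 in at least 4. HES1, a repressor of the Notch pathway, and ID2, an inhibitor that sequesters E proteins, had one in all 6. TCF3, an E protein partner of MYOD1, also had one in all 6, and ID1 in all but sgCCAAT2a. The E proteins TCF4 and TCF12, named after their values were seen, had none in any library. The ID2 peak was centred 98 to 147 bp outside the gene in every library. HEY1, named after its values were seen, had one in both RH4 lists and with sgCtrl2. Of 12 further genes of the PAX3 network, which are PAX, EYA and DACH genes and relatives of SIX4, 5 had an end peak in at least 1 library. SIX2, a homeodomain factor, had one in 5 libraries, all but sgCCAAT2b, whereas SIX4 had one in the RH30 controls only. PAX3 had one in 4 libraries, EYA3 in 3 and SIX5 in 1; EYA3 and SIX5 were named after their values were seen.

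Of 14 relatives and cofactors of MEF2, 6 had an end peak in at least 1 library. HDAC4, a histone deacetylase that represses MEF2, MAPK7, a kinase that activates it, and SRF, another MADS-box factor, had one in all 6. CARM1, an arginine methyltransferase, had the record of MEF2D: present in RH4 and both controls and absent from both edited lists. CABIN1 and EP300, named after their values were seen, had one in 2 libraries each. Of 25 muscle differentiation genes, the targets of the members, 2 had one in any library, namely CKM, muscle creatine kinase, for NFYB in RH4 only, and NEB, nebulin, with sgCtrl2 and sgCCAAT2b. Both were named after their values were seen.

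In the RH4 NFYB list, 35.7% of the MYOD1 partner genes (5 of 14), 33.3% of the PAX3 network genes (4 of 12) and 35.7% of the MEF2 cofactor genes (5 of 14) had an end peak, beside 15.0% of all genes. For the muscle differentiation genes it was 4.0% (1 of 25, 0.101 to 20.4%), an interval that includes the share of all genes. In the RH4 NFYC list it was 0 of 25 (0 to 13.7%), beside 15.3% of all genes. The intervals of the RH30 lists included the share of all genes. Within 50 kb, 24.0% of the muscle differentiation genes had a peak in the RH4 NFYC list, beside 36.2% of all genes. With sgCtrl2 it was 48.0% beside 47.2%. The gene lists were chosen with earlier results known, so nothing is read from these shares. Among 20 regulators of other lineages, such as GATA1 of blood and HNF4A of liver, the share with an end peak was 10.0% in the RH4 NFYB list. In the sgCtrl2 list the shares were 35.7, 41.7, 35.7, 4.0 and 15.0% in the same order, beside 16.8%. In the lineage list SOX9, a factor of cartilage, had one in 5 libraries and OLIG2, of glia, in 4. No list was tested against others, and intervals on lists of this size are wide: 5 of 14 runs from 12.8 to 64.9%.

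**Figure D5:**
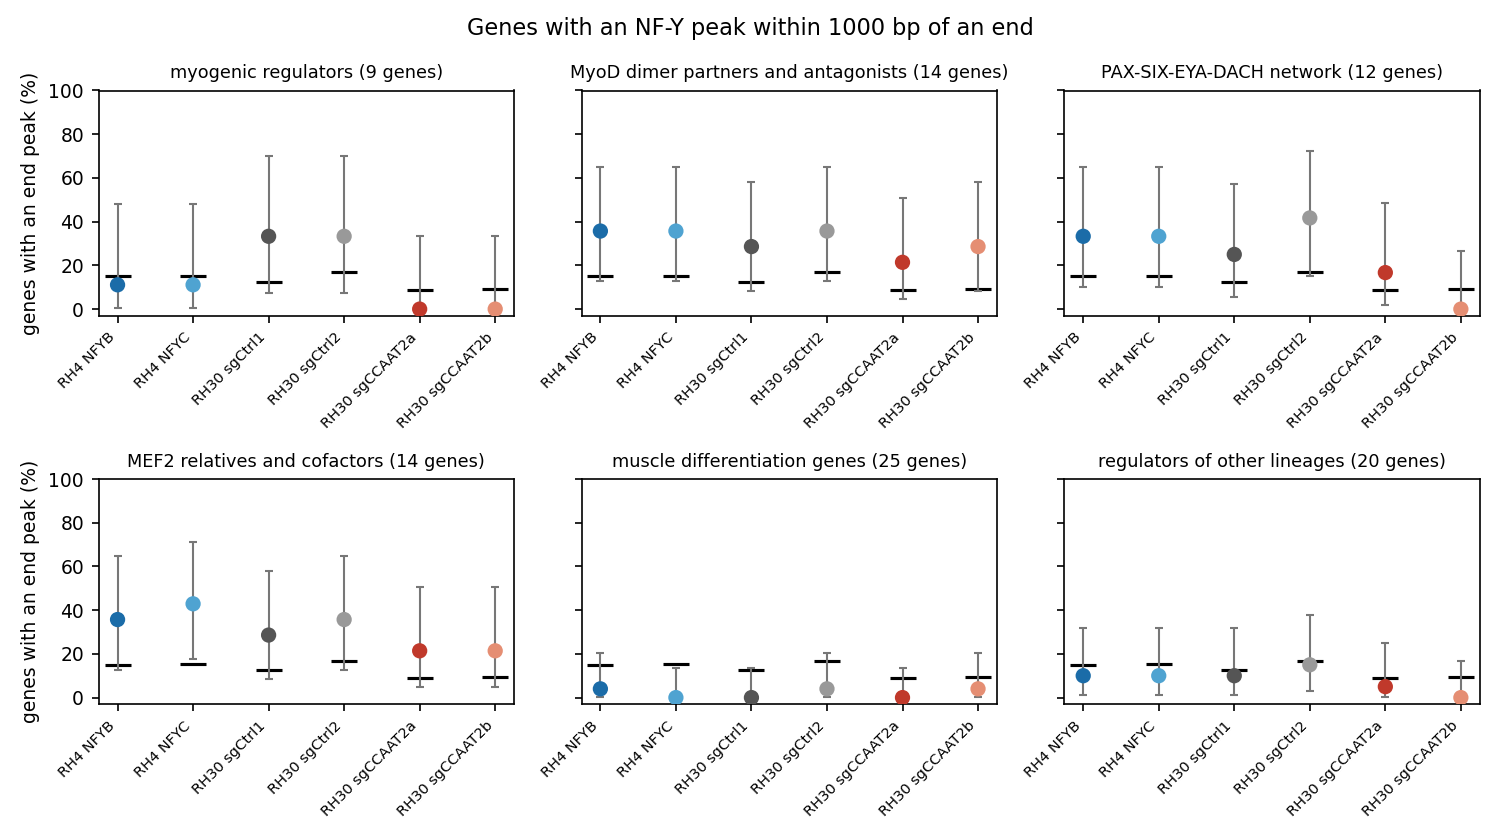
Percent of genes with a peak within 1000 bp of an end, by library, for the 9 myogenic regulators and 5 related lists; error bars are exact 95% intervals for counting and black dashes the share over all protein-coding genes. The myogenic regulators are at 33.3% in both RH30 controls and at 0% in both edited libraries, and the muscle differentiation genes are at or below 4.0% throughout.

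Absence from both edited lists was counted for the same lists, beside 21.6% of all genes with an end peak in both controls. Of the 4 MYOD1 partner genes with an end peak in both controls, 0 were in neither edited list. It was 1 of 3 for the PAX3 network genes, which was PAX3 itself, 1 of 4 for the MEF2 cofactor genes, which was CARM1, and 1 of 2 for the lineage regulators, which was OLIG2. The myogenic regulators had 3 of 3. Differences between these small counts were not tested, and nothing is read from them.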

How the data were processed

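NF-Y peak lists of 6 CUT&RUN libraries were used, 1 per guide and antibody, and no IgG library was analysed here. The authors' deposited files hold peak positions in bp with no heights. HOMER findPeaks made each RH30 list from its own library, per the file headers, at 2-fold over an input and 4-fold over the local region. Per the file headers, the differential tables compare single libraries by tag counts. The peak caller used for RH4 is not stated in the labels or headers used here. Entries there also name other coordinates, and hg38 is the build in the submitters' processing notes.

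The members and gene lists were chosen with earlier results of these data known. Genes were the 20037 protein-coding genes on chromosomes 1 to 22, X and Y of the RefSeq table for GRCh38.p14, and starts were taken as 0-based. Peaks shared with a window or each other overlapped by at least 1 bp. Named genes were all members, up to 4 genes of each list with an end peak in at least 4 libraries, the owners of the nearest ends, PAX3, and 3 genes of like record per member; some genes of these lists are not reported here. Analyses used Python 3.11.15, numpy 2.4.6 and pandas 2.3.3, with exact Clopper-Pearson intervals from scipy 1.17.1. Overlaps were tested on simulated lists, where 90 of 90 counts equalled those of bedtools 2.31.1. Motifs were searched in 15843 of the 20037 genes, those with a listed promoter. Alternatives were other windows, peak centres, stricter parts of the lists, 5′ ends alone and leaving out each RH30 library.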

Additional observations from a re-analysis of the deposited data

How the results depend on the processing

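Counts over 9 genes move by whole genes, so a change of 1 can pass 1.5 times. Of 69 alternatives, 52 stayed within 1.5 times of the reported count (or, for shares of genes of a like place, within their interval) and 17 did not. With the first 50% of each RH30 file, end peaks were found at 1 member instead of 3 with sgCtrl1; with the widest 50% of the RH4 NFYB list, at 0 instead of 1. With a window of 3000 bp, sgCCAAT2b had an end peak at 1 member, MEF2D, instead of 0. Within 10 kb instead of 50 kb, the members with a peak went from 2 to 1 for RH4 NFYB, from 7 to 4 for sgCtrl2, from 1 to 0 for sgCCAAT2a and from 3 to 1 for sgCCAAT2b. Within 100 kb they went from 2 to 5 for RH4 NFYB, from 2 to 6 for RH4 NFYC and from 1 to 4 for sgCCAAT2a. Listed in the authors' deposited tables were 1, 1 and 0 of the sgCtrl2 end peaks over sgCCAAT2a, sgCCAAT2b and sgCtrl1, and 8, 8 and 2 of all within 50 kb. The shares of all sgCtrl2 peaks were 61.9, 60.7 and 36.2%. With a window of 3000 bp, 4 muscle differentiation genes had an end peak in any library instead of 2. In the 150 bases before the start alone, 2 members held CCAAT instead of 4. Within 1000 places, a choice made after seeing the data, the share of genes in neither edited list was 40.2% around MYOD1 and 29.3% around MEF2D. These alternatives change which peaks or genes are counted. Leaving out either control or either edited list kept the count of members in the remaining controls and in no remaining edited list at 3. Leaving out a list cannot lower this count, so that says nothing about its stability. With a window of 3000 bp the count was 2 instead of 3. No paired analysis was possible because each group has 1 library.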

Other observations

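Among the peaks first met beyond 50 kb, one was shared by all 6 libraries, more than any site within it. All 6 lists had a peak 55.9 kb beyond the 3′ end of MEF2C, at positions 88661074 to 88661262 of chromosome 5 with sgCtrl1 and 88661039 to 88661201 with sgCCAAT2b. MEF2C was its nearest coding gene. Near MYOG a further peak lay 75.7 to 75.9 kb away in both RH4 lists, with sgCtrl1 and with sgCCAAT2a, 49 to 173 bp from an end of TMEM183A.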
